A study of Mus musculus with 2 samples.

Results

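The 10 genes described here belong to bone morphogenetic protein (BMP) signalling and to the Id family: the ligand genes Bmp4 and Bmp7, the receptor genes Bmpr1a, Bmpr1b and Bmpr2, the inhibitory gene Smad6 and the target genes Id1, Id2, Id3 and Id4. They were named from the 32285 genes counted by a list that uses no measured value but was drawn up with earlier results of these data known, and all 10 were found. Single-cell RNA sequencing (scRNA-seq) was carried out on the dissociated dorsal telencephalon, the part of the embryonic brain that forms the cerebral cortex, of mouse embryos at embryonic day (E) 16.5. The series concerns Dot1l, which encodes a histone methyltransferase, and its removal with Emx1-Cre, a driver active in the dorsal telencephalon. The 2 libraries used here, WT replicate 1 and WT replicate 6, both carry the genotype WT and formed a single group, and the mutant was not analysed here. The study names C57BL/6J mice for its E16.5 cortices, while the labels give only the genotype WT and not whether these embryos carry the Cre or a floxed allele, and no treatment is named. The question addressed was in which cells of the E16.5 cortex the ligands, the receptors and the Id targets are expressed.

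BMPs are secreted ligands that assemble type I receptors (Bmpr1a, Bmpr1b) and type II receptors (Bmpr2), which are serine/threonine kinases, at the cell surface. The activated type I receptor phosphorylates the receptor SMADs, which enter the nucleus with SMAD4, and the Id genes are among their best known direct targets. Id proteins lack a DNA-binding region and hold back basic helix-loop-helix factors by binding their E-protein partners, and Smad6 encodes an inhibitory SMAD that is itself a BMP target. In the developing forebrain BMPs are known to be made by the meninges and the dorsal midline.

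Cells with 1500 to 60000 unique molecular identifiers (UMIs, which mark single captured mRNA molecules) and under 10% mitochondrial UMIs were kept, 8139 of 14136 in WT replicate 1 and 8209 of 13046 in WT replicate 6. Totals were 74930397 and 68964234 UMIs, and the medians per kept cell were 6924 and 6664 UMIs. Cells entered a class by the number of its markers they held, and 59.59% and 62.25% of the kept cells fell into 1 of 12 classes. None of the 10 genes served as a marker. The classes of most use were radial glia (308 and 327 cells), the stem cells that line the ventricle, intermediate progenitor cells (IPCs, 310 and 354), excitatory neurons (2064 and 2255), interneurons (1354 and 1342), endothelial cells (67 and 56), mural cells (97 and 91) and fibroblasts (95 and 93). A progenitor class with markers of the ganglionic eminence (GE), the ventral region where interneurons are born, held 324 and 319 cells. Every marker was detected in its own class in both libraries, except that Slco1a4 was at 0 in the endothelial cells of WT replicate 1. Doublet scoring by Scrublet's method flagged the 920 and 857 kept cells with the highest scores. These numbers were set in advance from the number of cells, and whether the flagged cells are doublets was not tested. The scoring flagged 71 of 78 and 64 of 89 microglia and 26 of 30 and 24 of 26 oligodendrocyte precursors. Values of these classes are therefore given only as levels. Also flagged were 18 of 67 and 25 of 56 endothelial cells, 23 of 97 and 22 of 91 mural cells and 25 of 95 and 26 of 93 fibroblasts. These stayed in, and differences are given with doublets removed where that changed a call. Both libraries shared 59 cell barcodes. WT replicate 1 held far more RNA of the choroid plexus, the tissue that makes cerebrospinal fluid: its marker Ttr was found in 9.031% of cells, against 0.3776% in WT replicate 6.

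A level below is the gene's count in 1000000 UMIs (CPM), from UMIs summed over all cells of a class in a library, and values are given for WT replicate 1 and then WT replicate 6. A difference is the log2 ratio between classes fitted by edgeR with its standard error (SE), and it was called when the adjusted p over all genes tested was under 0.05. Cells are not replicates, and the p-values measure only the spread between these 2 libraries, which may be technical, since no source used here says how many embryos each holds. Whether reads in introns were counted is not given in the sources used here, so levels of different genes are not ranked against each other, except as shares of UMIs among the short Id genes.

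The Id genes are short genes, and RefSeq places them in the mouse assembly GRCm38.p6 (mm10) at chr2:152736251-152737410 (Id1), chr12:25093799-25096092 (Id2), chr4:136143822-136145392 (Id3) and chr13:48261116-48266028 (Id4). The 250 bases before the start site are printed only for Id2, Id3 and Id4, the Id genes with an entry. RefSeq's promoter table held no entry for Id1 or Bmp7. Capitals mark GGCGCC and GGAGCC, words that SMAD1 and SMAD5 are known to bind, searched on both strands (GGAGCC reads GGCTCC on the other strand).
Id2 (chr12:25096093-25096342, minus strand): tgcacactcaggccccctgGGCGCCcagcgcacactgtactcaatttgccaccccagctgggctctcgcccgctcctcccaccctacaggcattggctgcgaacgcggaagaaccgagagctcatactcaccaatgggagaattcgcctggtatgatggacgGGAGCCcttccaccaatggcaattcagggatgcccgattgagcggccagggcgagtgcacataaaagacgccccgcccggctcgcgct
Id3 (chr4:136143572-136143821, plus strand): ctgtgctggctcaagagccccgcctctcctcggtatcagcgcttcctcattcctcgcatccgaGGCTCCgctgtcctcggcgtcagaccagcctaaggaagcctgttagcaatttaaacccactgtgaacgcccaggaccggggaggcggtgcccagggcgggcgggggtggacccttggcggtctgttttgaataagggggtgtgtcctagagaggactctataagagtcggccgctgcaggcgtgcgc
Id4 (chr13:48260866-48261115, plus strand): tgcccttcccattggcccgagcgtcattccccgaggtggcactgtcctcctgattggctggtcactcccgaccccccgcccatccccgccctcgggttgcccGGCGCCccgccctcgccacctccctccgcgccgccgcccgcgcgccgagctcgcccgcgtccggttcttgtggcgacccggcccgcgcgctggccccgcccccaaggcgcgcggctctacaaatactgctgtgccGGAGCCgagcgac

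Id2 and Id4 held both words, at -231 and -88 bases from the start site in Id2 and at -148 and -13 in Id4, and Id3 held only GGAGCC, at -187. Over all 32851 windows of this length, 9.586% held GGCGCC and 25.97% held GGAGCC. The 3 windows were GC-rich, at 62.8%, 62.8% and 75.6% against a median of 52.4%. Among the other genes described here, whose windows are not printed, GGAGCC was found for Bmp4 and Smad6, and GGCGCC for Bmpr1a and Bmpr2. Some windows of Bmpr1b held GGAGCC and another held neither word. The words were thus not particular to the Id genes. All these matches describe letters in the windows and are not shown to be binding sites.

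The 4 Id genes were not all highest in the same class, and radial glia held all 4. Id1 and Id3 were highest in endothelial cells, Id2 in excitatory neurons and Id4 in radial glia, while mural cells and fibroblasts carried mostly Id3. Among the UMIs of all 4 Id genes, Id2 made up 92.75% ± 0.941 in excitatory neurons and 89.5% ± 0.842 in IPCs (SD, n = 2). In radial glia no single gene held over 50%, with 42.04% ± 1.47 Id4, 24.09% ± 2.69 Id3, 17.79% ± 2.09 Id2 and 16.08% ± 0.870 Id1 (SD, n = 2). Id4 held 64.97% ± 0.191 of the Id UMIs of interneurons, and Id3 held 73.66% ± 6.74 in mural cells and 83.41% ± 1.65 in fibroblasts (SD, n = 2). Endothelial cells divided theirs between Id1 (49.2%) and Id3 (44.83% ± 1.31, SD, n = 2). The summed Id level was 614 ± 5.52 CPM in radial glia and 762 ± 47.9 CPM in excitatory neurons (SD, n = 2), and 216 ± 13.4 CPM in interneurons.

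**Figure D1:**
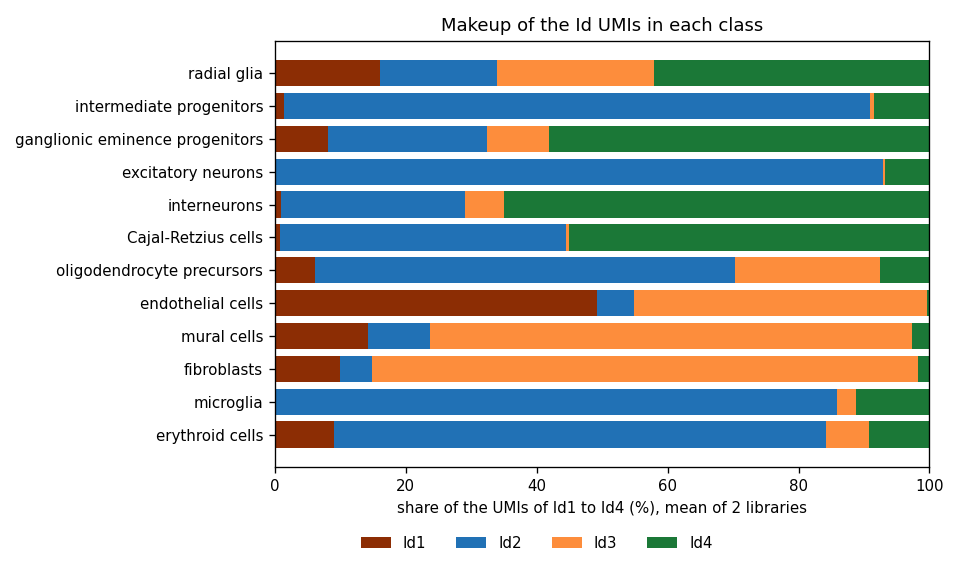
Each bar divides the UMIs of Id1, Id2, Id3 and Id4 in a class into the share of each gene, in percent on the x axis, as the mean of 2 libraries. Blue (Id2) fills 92.75% of the bar of excitatory neurons, green (Id4) 64.97% of that of interneurons and light orange (Id3) 83.41% of that of fibroblasts.

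Bmp4 and Bmp7, the ligand genes, were both highest in fibroblasts. Bmp4 (chr14:46383525-46390669) was at 35.3 and 51.0 CPM there, from 50 and 61 UMIs, and at 3.39 and 3.89 CPM in mural cells. In each of the other classes it had at most 2 UMIs, so that it was not detectable at this depth in radial glia or neurons beyond single molecules. Fibroblasts exceeded mural cells by a log2 difference of 3.58 ± 0.43 (adjusted p = 4.96e-05), and their libraries did not overlap.

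Bmp7 (chr2:172868012-172940321) was at 276 and 263 CPM in fibroblasts, at 57.4 and 68.6 CPM in oligodendrocyte precursors and at 14.6 and 11.3 CPM in radial glia. These 3 levels did not overlap between libraries, and mural cells stood at 0 UMIs in both. Fibroblasts were at least 149.0-fold higher than mural cells when 3 counts over both libraries are taken as the limit of a count of 0. Such limits and the exact counting intervals given below cover counting error only. In IPCs the level was 0.310 and 0.877 CPM, so that radial glia exceeded IPCs by 4.28 ± 0.49 (adjusted p = 7.45e-05). Thinned to 2000 UMIs per cell, 42.0% ± 1.39 of fibroblasts had a Bmp7 UMI (SD, n = 2; 88.3% unthinned). Of erythroid cells, which should lack it, 0 of 67 and 0 of 105 did, which allows shares of up to 4.48% and 2.86%.

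Bmp6, a ligand gene outside the 10, was also highest in fibroblasts. It was at 725 and 609.6 CPM in fibroblasts and at 0 UMIs in mural cells, at least 371.0-fold lower. Bmp5 was at 85.9 and 81.7 CPM in mural cells and 127 and 134 CPM in fibroblasts (log2 difference 0.69 ± 0.16, adjusted p = 0.00674), with 0 UMIs in endothelial cells. Of the 11 further ligand genes listed, 3 could be tested between fibroblasts and mural cells and 2 were called, both higher in fibroblasts, where 28.0% of all 10187 genes tested were called.

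**Figure D2:**
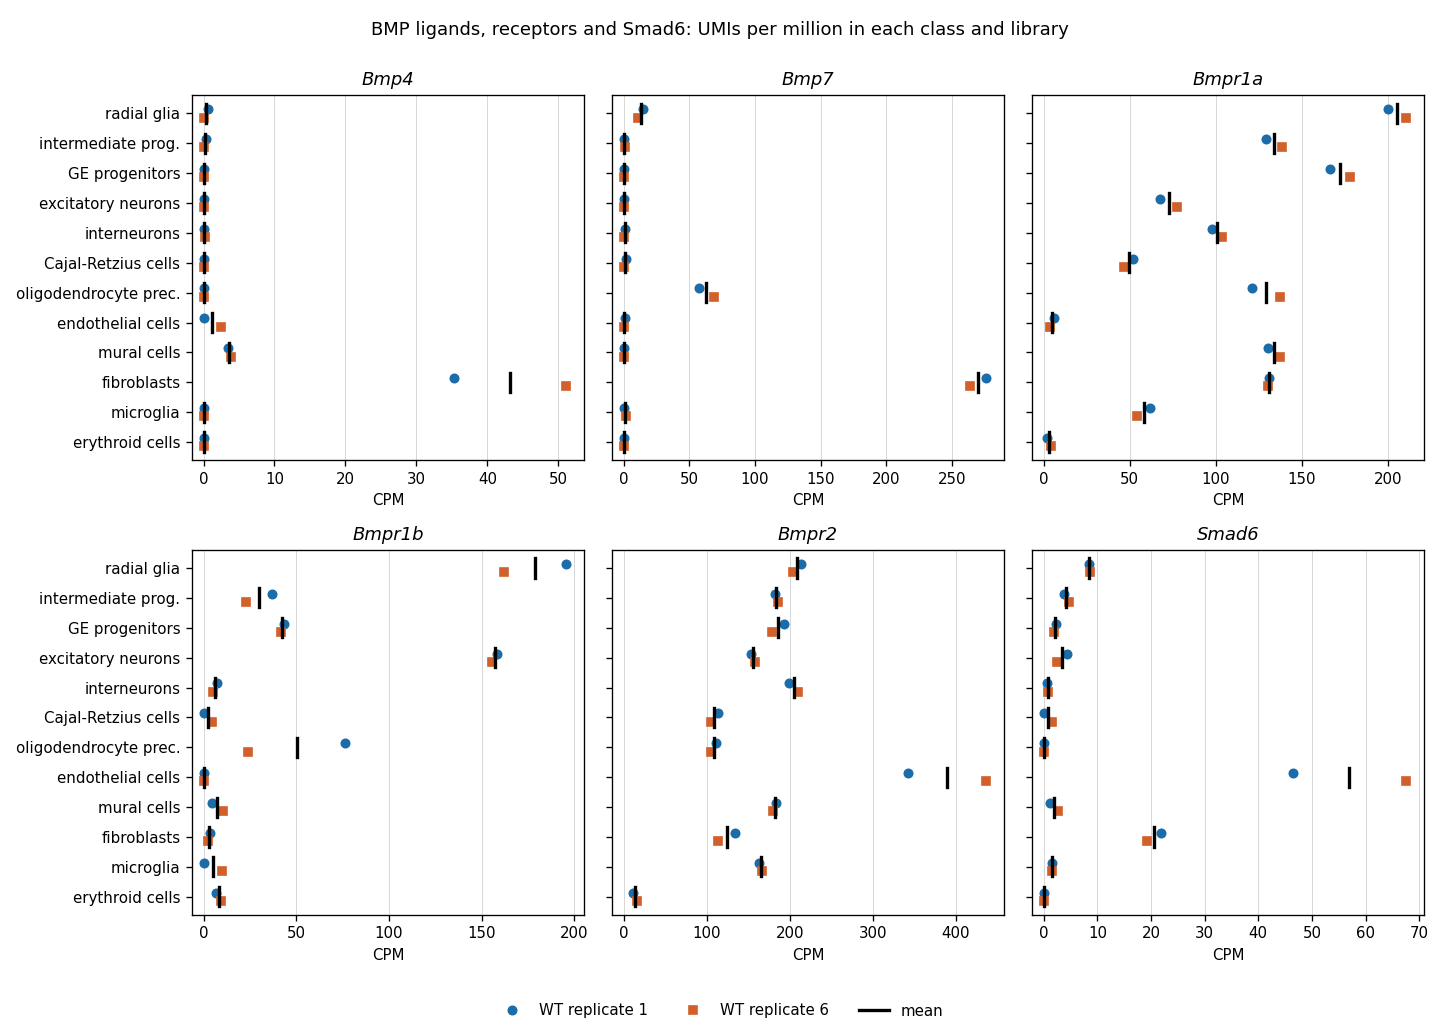
Each panel gives the CPM of a ligand, receptor or inhibitor gene on a linear x axis in the 12 classes, with a circle for WT replicate 1, a square for WT replicate 6 and a line for their mean. Bmp4 and Bmp7 stand out in fibroblasts, Bmpr1b in radial glia (195 and 162 CPM) and excitatory neurons (158 and 156 CPM), and Bmpr2 and Smad6 in endothelial cells.

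Both type I receptor genes had their highest mean level in radial glia and were low in endothelial and erythroid cells. Bmpr1b was also low in interneurons, mural cells and fibroblasts, where Bmpr1a was not. Bmpr1a (chr14:34411061-34503336) was at 200 and 210.3 CPM in radial glia, 166 and 178 CPM in GE progenitors, 129 and 138 CPM in IPCs and 67.4 and 77.6 CPM in excitatory neurons. Mural cells, IPCs, fibroblasts and oligodendrocyte precursors, each between 121 and 138 CPM, overlapped with their neighbours in this order. Endothelial cells held only 5.96 and 3.62 CPM, overlapping with erythroid cells, and the log2 difference from radial glia was -5.23 ± 0.25 (adjusted p = 6.7e-08).

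Bmpr1b (chr3:141837135-142169585) was at 195 and 162 CPM in radial glia and 158 and 156 CPM in excitatory neurons, and the difference between them was not called (-0.01 ± 0.10, adjusted p = 0.922). It was at 37.1 and 22.8 CPM in IPCs, at 43.3 and 41.8 CPM in GE progenitors and at 7.54 and 4.98 CPM in interneurons. No Bmpr1b UMI was found in endothelial cells, and radial glia, with 1066 UMIs, were at least 99.3-fold higher. Radial glia exceeded IPCs by 2.52 ± 0.19 (adjusted p = 4.38e-06), and interneurons stood below excitatory neurons at -4.73 ± 0.14 (adjusted p = 1.22e-07). Levels in radial glia, IPCs and excitatory neurons therefore did not run in a single direction along that lineage.

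Bmpr2 (chr1:59764279-59878081), the type II receptor gene, was detected at like levels in most classes. It lay between 105 and 213.5 CPM in 10 of the 12 classes, endothelial cells were above that at 342 and 436 CPM, and erythroid cells were below it at 11 and 16.5 CPM. Endothelial cells exceeded radial glia by 1.07 ± 0.15 (adjusted p = 0.000203) and mural cells stood below endothelial cells at -1.13 ± 0.16 (adjusted p = 0.000277). Endothelial cells thus had the highest Bmpr2 level and no Bmpr1b UMI, which at a limit of 1.797 CPM over both libraries does not separate them from Cajal-Retzius cells (0 and 4.64 CPM), and their Bmpr1a level overlapped only with that of erythroid cells. Acvrl1, a type I receptor known from endothelium, had 240 UMIs in endothelial cells (144 and 143 CPM) and 0 in radial glia, at least 286-fold lower. Eng, its co-receptor, was at 397 and 412 CPM against 0.677 and 1.66 CPM (8.53 ± 0.24, adjusted p = 6.21e-09).

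Smad6 (chr9:63953076-64022085), the inhibitory SMAD gene, was at 46.5 and 67.5 CPM in endothelial cells, 21.9 and 19.2 CPM in fibroblasts and 8.46 and 8.61 CPM in radial glia, and below 5 CPM in each of the other classes. Mural cells held 3 UMIs in all, giving an endothelial to mural ratio of 31.4 (95% counting interval 10.4 to 155). Endothelial cells exceeded radial glia by 2.90 ± 0.26 (adjusted p = 6.96e-06).

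**Figure D3:**
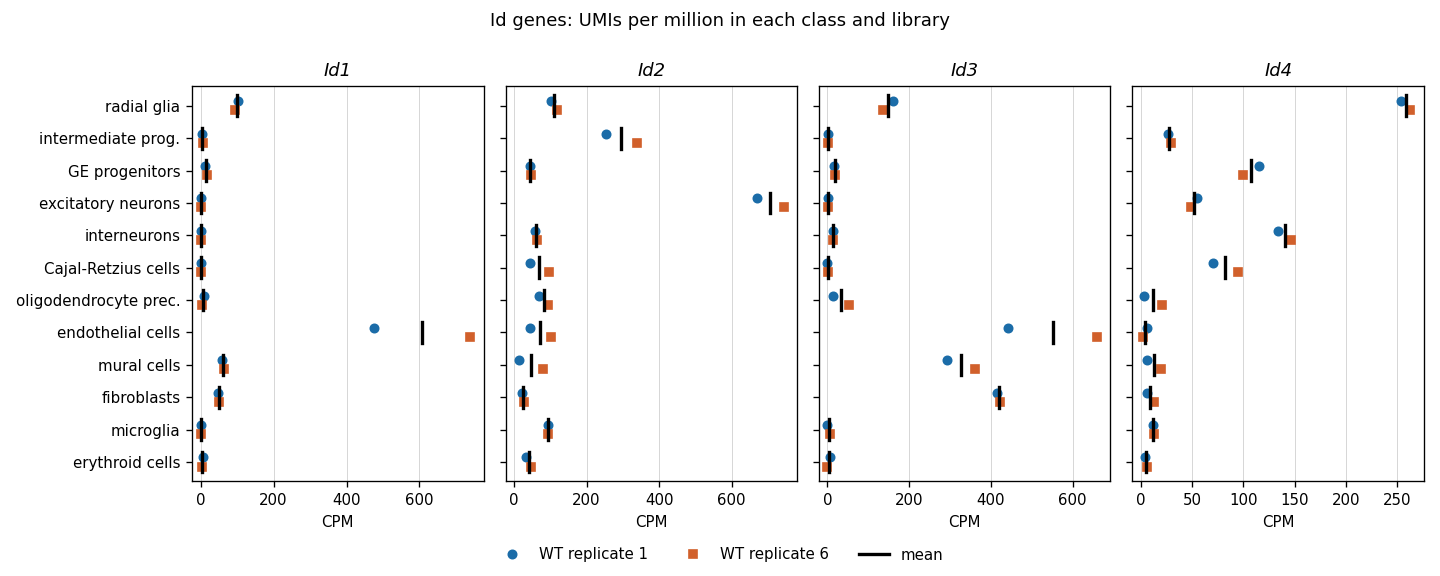
Each panel gives the CPM of an Id gene on a linear x axis in the 12 classes, with a circle for WT replicate 1, a square for WT replicate 6 and a line for their mean. The 2 endothelial libraries of Id1 and Id3 lie far apart (475 and 739 CPM, 442 and 659 CPM) but above every radial glia library, and the excitatory neurons lie highest for Id2.

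Id1 was at 475 and 739 CPM in endothelial cells, 103 and 94.4 CPM in radial glia, 59.9 and 64.8 CPM in mural cells and 48.8 and 51.0 CPM in fibroblasts, with no overlap between neighbours. IPCs, at 3.1 and 6.14 CPM, and excitatory neurons, at 1.10 and 1.11 CPM, held almost none. Id3 was at 442 and 659 CPM in endothelial cells, 415 and 422 CPM in fibroblasts, 292 and 362 CPM in mural cells and 161 and 136 CPM in radial glia. It fell to 2.17 and 1.75 CPM in IPCs, a level that overlapped with that of excitatory neurons (2.01 and 2.52 CPM).

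Id4 was at 254 and 263 CPM in radial glia, 134 and 147 CPM in interneurons, 116 and 100.1 CPM in GE progenitors and 54.6 and 48.8 CPM in excitatory neurons. Its endothelial level, 5.96 and 2.41 CPM, overlapped with that of erythroid cells. It was the only one of the 4 Id genes with its lowest mean level in endothelial cells.

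Id2 was at 670.3 and 743 CPM in excitatory neurons, 253 and 338 CPM in IPCs and 101 and 118 CPM in radial glia, so that of these 3 classes it was lowest in radial glia, where each of the other Id genes was highest. Its libraries disagreed in some small classes, with 14.7 and 79.1 CPM in mural cells and 42.9 and 101 CPM in endothelial cells. Erythroid cells held 33.1 and 48.1 CPM of Id2, more than of any other Id gene there.

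At a common depth of 2000 UMIs per cell, 62.1% ± 1.49 of excitatory neurons had an Id2 UMI (SD, n = 2; 89.4% unthinned), against 7.27% of erythroid cells. The share for Id4 was 36.3% ± 2.52 in radial glia (74.4% unthinned), with 0 of the same 67 and 105 erythroid cells. Among endothelial cells it was 52.0% ± 12.3 for Id1 (79.1% unthinned) and 51.1% ± 11.1 for Id3 (84.3% unthinned), against 1.22% and 0.747% of erythroid cells. The background shares of erythroid cells were therefore far below those of the leading class for each gene.

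The step from radial glia to IPCs, the first step towards neurons, separated most of these genes. Of the 10 genes, 9 passed the filter on low counts and 8 were called, 7 higher in radial glia and 1 lower, where 46.8% of all 12548 genes tested were called. Among the Id genes, Id3 differed by 6.15 ± 0.21 (adjusted p = 2.99e-08), Id1 by 4.33 ± 0.22 (adjusted p = 2.26e-07) and Id4 by 3.15 ± 0.11 (adjusted p = 2.96e-08). Id2 was lower in radial glia, at -1.50 ± 0.14 (adjusted p = 1.73e-05). Bmpr1a differed by 0.55 ± 0.09 (adjusted p = 0.00076) and Smad6 by 0.95 ± 0.33 (adjusted p = 0.0391). The Smad6 call was lost with DESeq2 (adjusted p = 0.272), without the filter on low counts (0.0555), with the narrower cell filter (0.0558) and with non-cycling radial glia only (0.248). Bmpr2 was not called (0.12, adjusted p = 0.33).

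Of 49 further pathway genes listed, 28 could be tested between these classes and 19 were called, where 46.8% of all genes tested were called. Of the 19, 9 were higher in radial glia and 10 lower. The median log2 difference of the 28 was -0.08 against 0.003 for all genes. Inhibitors, the longest list, which also holds genes of intracellular proteins, made up 6 of the 9 higher ones. Of 13 inhibitors tested, 6 were higher and 1 lower. Nog, which encodes the BMP-binding protein noggin, was at 27.4 and 20.2 CPM in radial glia and had 2 UMIs in IPCs (ratio 79.1, 95% counting interval 21.5 to 659). Bambi, a decoy receptor gene, was higher by 3.79 ± 0.50 (adjusted p = 0.000183), and Fstl1, which encodes a secreted follistatin-like protein, by 2.20 ± 0.12 (adjusted p = 4.27e-07). Rgma, a BMP co-receptor gene, was the only one of 6 receptors and co-receptors higher in radial glia (3.98 ± 0.17, adjusted p = 7.12e-08), while the other 5 were lower. Bmp6 was higher by 4.21 ± 0.84 (adjusted p = 0.00246), with 41 and 15 UMIs in radial glia and a within-library difference of 6.44 in WT replicate 1 and 2.26 in WT replicate 6.

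Choroid plexus RNA moved with radial glia. The summed level of its markers there was 4443 CPM in WT replicate 1 and 17.9 CPM in WT replicate 6, and 5 of 308 and 5 of 327 radial glia held at least 2 choroid markers. Those cells were left out in a setting added after seeing the data. The members called between radial glia and IPCs, excitatory neurons, GE progenitors or endothelial cells then stayed at 8, 8, 7 and 8. In that setting Bmp6 differed between radial glia and IPCs by 3.91 ± 0.76 (adjusted p = 0.00211). Radial glia with fewer than 2 choroid markers stayed in, so the part of choroid RNA in these differences was not tested.

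Radial glia and excitatory neurons, the start and the end of the cortical lineage, differed in 8 of 9 tested genes, 7 higher in radial glia and 1 lower, where 64.0% of 15398 genes were called. With TMM scaling 49.5% of all calls were higher in radial glia, and 60.2% without it, when the median of all genes was 0.16 in place of -0.04. Id1 differed by 6.27 ± 0.14 (adjusted p = 7.29e-09), Id3 by 5.83 ± 0.15 (adjusted p = 1.11e-08), Id4 by 2.12 ± 0.09 (adjusted p = 1.04e-07) and Id2 by -2.89 ± 0.12 (adjusted p = 1.04e-07). All 4 kept these directions in both scalings. Bmpr1b, which was not called, stood at -0.01 with TMM scaling and at 0.19 without it. Bmp7 was higher by 5.80 ± 0.37 (adjusted p = 1.76e-06), Bmpr1a by 1.30 ± 0.09 (adjusted p = 2.95e-06) and Smad6 by 1.11 ± 0.33 (adjusted p = 0.0157), a call lost without the filter (adjusted p = 0.0879) and with non-cycling radial glia only (0.186). The Bmpr2 difference was small (0.22 ± 0.08, adjusted p = 0.0374) and was not called under 5 alternatives, DESeq2 among them (adjusted p = 0.0689).

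Among the pathway genes, 25 of 35 tested were called against excitatory neurons, where 64.0% of all genes tested were called. Of the 25, 15 were higher in radial glia and 10 lower, and the median of the 35 was 0.30 against -0.04 for all genes. Nog (5.09 ± 0.28, adjusted p = 5.59e-07), Bmper, a secreted BMP-binding protein gene (3.75 ± 0.11, adjusted p = 1.89e-08), and Fstl1 (3.37 ± 0.10, adjusted p = 1.89e-08) were higher in radial glia. Grem1, which encodes the antagonist gremlin, was at 4.30 and 5.56 CPM in excitatory neurons with 2 UMIs in radial glia (ratio 14.7, 95% counting interval 4.02 to 122). Msx1, a homeobox target gene, was higher by 3.93 ± 0.54 (adjusted p = 0.000223) from 13 and 8 UMIs, of which 3 and 1 remained without the cells that held choroid markers.

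**Figure D4:**
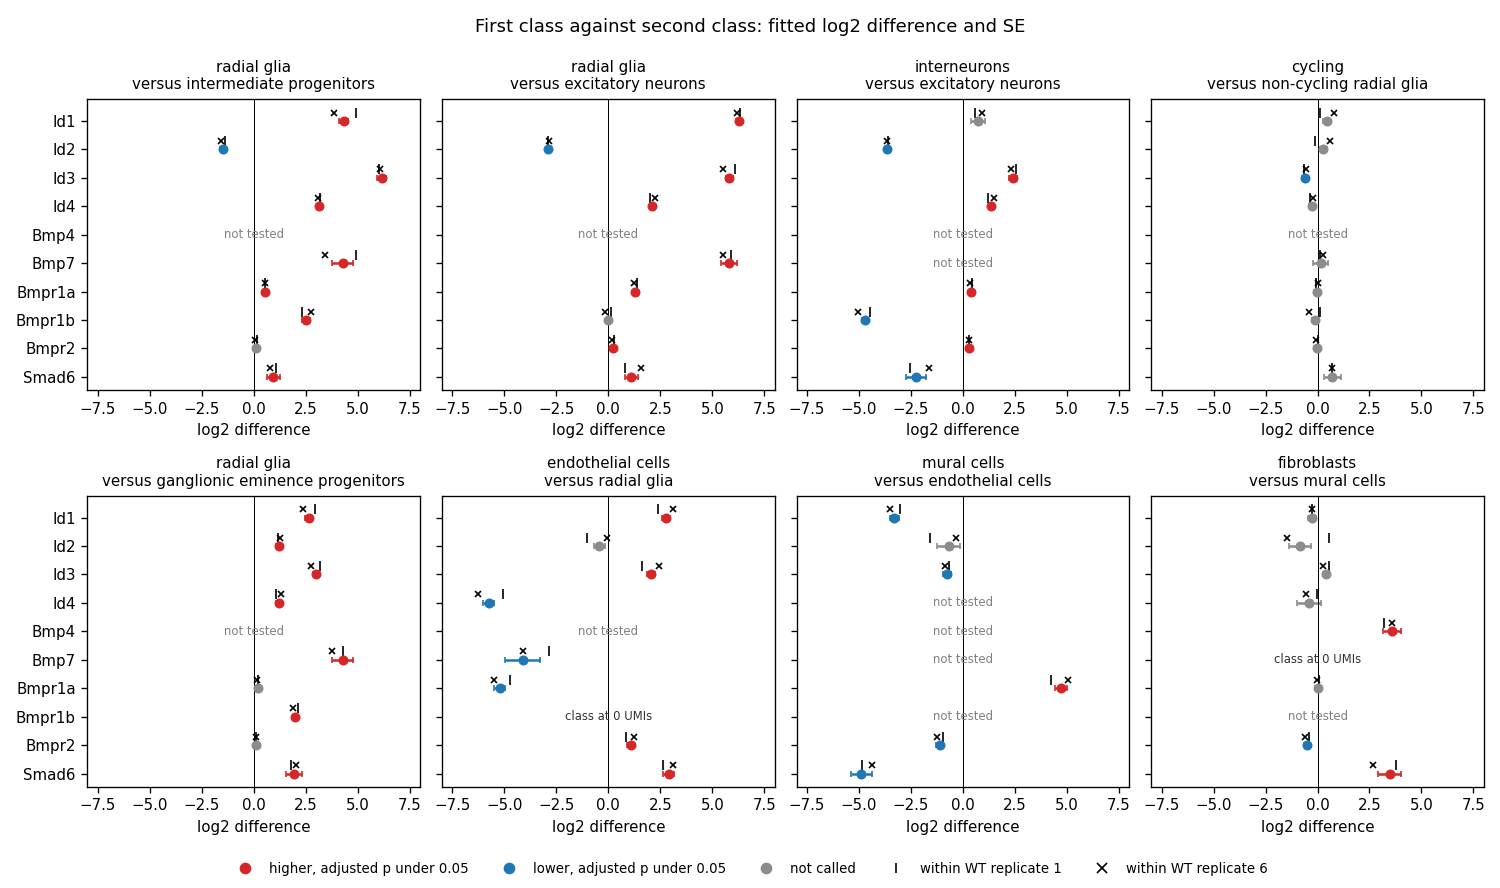
Each panel plots, for 1 of the 8 comparisons, the fitted log2 difference of each gene (first class minus second class, x axis) with its SE as a bar, red where called higher, blue where called lower and grey where not called. A tick and a cross give the difference within WT replicate 1 and WT replicate 6, genes with a class at 0 UMIs carry no point, and Id2 lies to the left of 0 against IPCs and excitatory neurons where Id1, Id3 and Id4 lie to the right.

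Interneurons and excitatory neurons differed most in Id2 and in the type I receptor gene Bmpr1b. Of 8 genes tested, 7 were called, 4 higher and 3 lower in interneurons, where 45.0% of 15485 genes were called. Of all calls 49.8% were higher in interneurons with TMM scaling and 61.4% without it. Id2 stood at -3.63 ± 0.08 (adjusted p = 4.17e-08), Id3 at 2.42 ± 0.19 (adjusted p = 3.42e-05) and Id4 at 1.35 ± 0.08 (adjusted p = 8e-06). Bmpr1a was slightly higher (0.38 ± 0.08, adjusted p = 0.00596, and 0.0556 without the filter), as was Bmpr2 (0.30 ± 0.06, adjusted p = 0.00464), and Smad6 was lower at -2.27 ± 0.48 (adjusted p = 0.00611), on 10 UMIs in interneurons. Id1 was not called (0.73, adjusted p = 0.112). Median depth differed between these classes, at 4782.5 and 4144.5 UMIs per interneuron and 9410 and 8378 UMIs per excitatory neuron, and its part in the differences was not tested.

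Of the pathway genes, 22 of 34 tested were called, where 45.0% of all genes tested were called. Of the 22, 13 were higher and 9 lower in interneurons, and the median of the 34 was 0.07 against -0.01 for all genes. Bmper was at 87.2 and 98.8 CPM in interneurons and at 8.55 and 8.03 CPM in excitatory neurons (3.39 ± 0.09, adjusted p = 1e-07). The inhibitor genes Sostdc1 (-2.54 ± 0.60, adjusted p = 0.0102), Grem1 (-2.53 ± 0.36, adjusted p = 0.000877) and Fst (-2.0 ± 0.30, adjusted p = 0.00125) were lower, each below 10 CPM in both classes. Bmp8a, a ligand gene, was higher by 2.06 ± 0.47 (adjusted p = 0.00933) with levels below 2 CPM.

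Interneurons were then divided by a single gene as a description without a test, a split chosen after the values were seen. Interneurons with Lhx6, a gene of the medial GE lineage, averaged 51.6 ± 4.69 CPM of Id4 and 24.3 ± 4.48 CPM of Id3, against 177 ± 12.9 CPM and 8.23 ± 1.27 CPM in those without (SD, n = 2). Id2 was at 69.75 ± 1.138 CPM with Lhx6 and 57.17 ± 4.031 CPM without (SD, n = 2). Id4 was thus the highest Id gene only in the interneurons without an Lhx6 UMI, and Id2 in those with it. The interneurons without it had medians of 4817 and 4096.5 UMIs (WT replicate 1 and WT replicate 6). At this depth a cell without an Lhx6 UMI may still express the gene.

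Between cycling and non-cycling radial glia, the number of these genes called depended on the setting and does not set them apart from all genes. Cycling radial glia held at least 4 of 9 cell-cycle markers (114 and 128 cells) and non-cycling ones at most 2 (183 and 179 cells). Of 9 genes tested 1 was called, where 18.5% of 10806 genes were called. Of those calls 54.9% were higher in cycling radial glia by edgeR and 67.3% by DESeq2. That gene was Id3, at 126 and 109 CPM in cycling and 202 and 164 CPM in non-cycling radial glia (-0.59 ± 0.16, adjusted p = 0.0181), without overlap. Id1 was at 110 and 122 CPM in cycling and 103 and 74.7 CPM in non-cycling cells (0.43, adjusted p = 0.108). Id4 was at 217 and 238 against 289 and 286 CPM (-0.29, adjusted p = 0.169). With the library as a replicate block, which pairs the classes of a library, both were called as well (Id1 0.44, adjusted p = 0.0138; Id4 -0.29, adjusted p = 0.046), and DESeq2 called none of the 9. Without the cells that held choroid markers, Id1 was called (0.53, adjusted p = 0.0471) beside Id3 (-0.54, adjusted p = 0.03).

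Of 26 pathway genes tested, 3 were called between cycling and non-cycling radial glia, where 18.5% of all genes tested were called. The median of the 26 was -0.08 against -0.003 for all genes. Bmp6 had 2 UMIs in cycling and 52 in non-cycling radial glia (ratio 23.6, 95% counting interval 6.20 to 200), and summed choroid markers moved with it, at 8621 CPM in non-cycling radial glia of WT replicate 1 and 31.9 CPM in WT replicate 6. Bmp6 kept 28 and 15 UMIs in non-cycling radial glia without the cells that held choroid markers. Rgma was lower in cycling radial glia (-0.53 ± 0.14, adjusted p = 0.02) and Tcf4, an E-protein gene whose product Id proteins bind, was higher (0.42 ± 0.13, adjusted p = 0.0414).

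Compared with GE progenitors, 7 of 9 tested genes were higher in radial glia and none was lower, where 44.9% of 12429 genes were called. Id3 differed by 3.0 ± 0.16 (adjusted p = 2.89e-07), Id1 by 2.65 ± 0.17 (adjusted p = 9.19e-07), Id2 by 1.23 ± 0.13 (adjusted p = 2.81e-05) and Id4 by 1.20 ± 0.11 (adjusted p = 1.31e-05). Bmp7 (4.28 ± 0.49, adjusted p = 4.97e-05), Bmpr1b (2.01 ± 0.14, adjusted p = 1.5e-06) and Smad6 (1.94 ± 0.40, adjusted p = 0.00268) were higher too. Bmpr1a (0.19, adjusted p = 0.156, and 0.049 with the replicate block) and Bmpr2 (0.11, adjusted p = 0.459) were not called. All GE progenitors were cycling by their gate. Against cycling radial glia only, a setting added after seeing the data, 7 of the 10 genes were called, where 32.3% of 11546 genes were called, and Id1 differed by 2.90, Id2 by 1.38, Id3 by 2.68 and Id4 by 1.03.

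Of 28 pathway genes tested between all radial glia and GE progenitors, 19 were called, where 44.9% of all genes tested were called. Of the 19, 11 were higher and 8 lower in radial glia, and the median of the 28 was -0.08 against 0.01 for all genes. Among inhibitor genes 7 of 13 were higher, with Nog (3.14 ± 0.33, adjusted p = 3e-05), Chrdl1 (2.32 ± 0.68, adjusted p = 0.0168) and Fst (1.96 ± 0.41, adjusted p = 0.00297) leading. Hey1, a target gene, was higher by 1.88 ± 0.31 (adjusted p = 0.000659). Bmp6 was higher by 2.86 ± 0.82 (adjusted p = 0.0155), a difference that was 6.57 within WT replicate 1 and 0.86 within WT replicate 6.

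Endothelial cells had the highest Id1 and Id3 levels and differed from radial glia in 8 of 9 tested genes, 4 higher and 4 lower, where 50.6% of 11915 genes were called. Without TMM scaling the median of all genes was -0.23 in place of -0.05, and the same 8 genes were called. Id1 differed by 2.79 ± 0.20 (adjusted p = 1.31e-06) and Id3 by 2.06 ± 0.20 (adjusted p = 1.02e-05), whereas Id4 stood at -5.75 ± 0.27 (adjusted p = 5.74e-08) and Id2 was not called (-0.43, adjusted p = 0.199). Id2 was called with doublets removed (-0.64, adjusted p = 0.0406) and with the highest marker score (-0.48, adjusted p = 0.0341). Bmp7 had 1 UMI in endothelial cells, and the radial glia to endothelial ratio was 21.5 (95% counting interval 3.75 to 861). With classes by the highest marker score, the fitted Bmp7 difference was -0.22 (adjusted p = 0.687) in place of -4.13, so the call was lost. The cycling markers averaged 1.5 per endothelial cell in WT replicate 1 and 2.9 in WT replicate 6, where Id1 and Id3 were also higher, and their part in that spread was not tested.

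Of 29 pathway genes tested, 21 were called, where 50.6% of all genes tested were called. Of the 21, 12 were higher and 9 lower in endothelial cells, and the median of the 29 was 0.27 against -0.05 for all genes. Beside Acvrl1 and Eng, the target gene Gata2 had 36 UMIs in endothelial cells and 0 in radial glia, at least 43.0-fold lower. Nog (142 UMIs in radial glia, at least 13.2-fold higher) and Fst (59 UMIs, at least 5.50-fold higher) were at 0 in endothelial cells. The inhibitors, the longest of the lists, had 5 higher and 5 lower among 11 tested.

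Mural cells, which wrap the vessels, had lower levels than endothelial cells in 4 of 6 tested genes and a higher level in 1, where 32.9% of 9514 genes were called. Id1 stood at -3.31 ± 0.22 (adjusted p = 1.37e-06), Id3 at -0.78 ± 0.19 (adjusted p = 0.00967) and Smad6 at -4.89 ± 0.50 (adjusted p = 2.61e-05), on 3 UMIs in mural cells. Bmpr1a was higher by 4.73 ± 0.30 (adjusted p = 9.53e-07), at 130.0 and 137 CPM. Id2 was not called (-0.69, adjusted p = 0.401) without the replicate block and was called with it (-0.71, adjusted p = 0.0307), without the filter (-0.72, adjusted p = 0.023) and with doublets removed (-1.82, adjusted p = 0.0117).

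Of 28 pathway genes tested, 19 were called, where 32.9% of all genes tested were called. Of the 19, 6 were higher and 13 lower in mural cells, and the median of the 28 was -0.37 against 0.02 for all genes. Bmp5 had 139 UMIs in mural cells and 0 in endothelial cells, at least 46.7-fold lower, and Gata2 was at 0 in mural cells, at least 11.9-fold lower than in endothelial cells. Nbl1, which encodes a secreted BMP antagonist, was higher by 5.03 ± 0.39 (adjusted p = 3e-06). Rgma (89 against 2 UMIs, ratio 44.9, 95% counting interval 12.1 to 376) and the ligand gene Gdf11 (24 against 1 UMI, ratio 24.2, 95% counting interval 3.95 to 995) were higher too.

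Fibroblasts and mural cells differed in both ligand genes, while no Id gene was among the 4 genes called. Of 9 genes tested 4 were called, 3 higher and 1 lower in fibroblasts, where 28.0% of 10187 genes were called. Beside Bmp4 and Bmp7, Smad6 was higher (54 against 3 UMIs, ratio 11.4, 95% counting interval 3.70 to 57.1) and Bmpr2 lower (-0.49 ± 0.15, adjusted p = 0.029), a call lost under 4 alternatives (adjusted p = 0.138 to 0.255). Id1 (-0.27, adjusted p = 0.376), Id2 (-0.85, adjusted p = 0.271), Id4 (-0.40, adjusted p = 0.67) and Bmpr1a (0.02, adjusted p = 0.937) were not called. Id3 was not called without the replicate block (0.41, adjusted p = 0.065) and was called with it (0.42, adjusted p = 0.0217), without the filter (0.43, adjusted p = 0.0382) and with doublets removed (0.60, adjusted p = 0.0432). Id2 was called only without the filter (-0.84, adjusted p = 0.0234) and stood at 0.026 with doublets removed.

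Of 29 pathway genes tested, 13 were called, where 28.0% of all genes tested were called. Of the 13, 9 were higher and 4 lower in fibroblasts, and the median of the 29 was 0.39 against -0.002 for all genes. Msx1 was at 104 and 151 CPM in fibroblasts and at 3.39 and 5.19 CPM in mural cells (4.92 ± 0.37, adjusted p = 7.86e-07). Twsg1, a BMP-binding protein gene, was higher by 1.95 ± 0.28 (adjusted p = 0.000217). Acvrl1 (-1.90 ± 0.32, adjusted p = 0.00068) and Bmper (-1.68 ± 0.47, adjusted p = 0.0181) were lower.

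The genes whose class pattern was most like that of each Id gene were found by Pearson's r of log2(CPM + 10) over the 12 class means, among 7608 genes at 50 CPM or more in a class. The points share the same 2 libraries, and the values are a description. Id1 was closest to Ephb4 (0.971), Wwtr1 (0.946) and Sox13 (0.937), all highest in endothelial cells. Id2 was closest to Zbtb18 (0.926), Gramd1b (0.91) and Enc1 (0.901), all highest in excitatory neurons, and Id4 to St6galnac5 (0.925), Fstl5 (0.913) and Msi1 (0.903), all highest in radial glia. For Id3 the nearest genes were Cavin3 (0.978) and Sparcl1 (0.958), highest in endothelial cells, and Pawr (0.972), highest in mural cells.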

How the data were processed

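UMI counts per gene and cell came from 2 WT libraries of the E16.5 dorsal telencephalon (10x 3' chemistry; papain dissociation). The deposited values are raw counts that the authors made with Cell Ranger 7.0.0, with mm10 named in the submitters' processing notes; counting of introns is not given in the sources used here. The files held called cells of at least 500 UMIs.

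Classes were gated on numbers of markers detected per cell. The 10 genes and all lists were chosen with earlier results of these data known, and gate thresholds were set on marker counts. Doublets stayed in. UMIs were summed per library and class and compared with edgeR 4.0.16 in R 4.3.3 (glmQLFit and glmQLFTest, two-sided, TMM scaling, filterByExpr, Benjamini-Hochberg over all genes), with 2 sums per class. These steps were also run on simulated sums, which were drawn independently and so did not hold the pairing of classes by library. SEs came from the log2 difference and the F statistic. The smaller class sums hold less depth and give wider errors. All 10 genes were named, and pathway genes where called, up to 5 per comparison by size. Other tools were Python 3.11.15, SciPy 1.17.1, scikit-learn 1.9.0 (Scrublet's method) and DESeq2 1.42.0. Positions and promoters came from RefSeq (GRCm38.p6), matched by symbol.

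Each library supplied every class, so libraries pair them: same-library deviations from class means correlated over genes at 0.131 to 0.408. Alternatives were the replicate block (library), other scalings, filters, gates, doublet removal and single libraries.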

Additional observations from a re-analysis of the deposited data

Results flagged for a closer look

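Kept cells that entered no class (3289 in WT replicate 1 and 3099 in WT replicate 6) were used in no comparison, and all 10 genes were found in them above the level that 3 counts give there (0.134 and 0.144 CPM). Values are for WT replicate 1 and then WT replicate 6. Id2 was at 278.5 and 353.5 CPM and Id4 at 86.32 and 86.25 CPM. Id3 was at 32.32 and 25.19 CPM and Id1 at 15.45 and 19.25 CPM. The receptor genes stood at 115.3 and 114.7 CPM (Bmpr1a), 74.48 and 82.13 CPM (Bmpr1b) and 184.0 and 187.9 CPM (Bmpr2). Bmp7 was at 7.701 and 6.417 CPM, Smad6 at 4.63 and 4.55 CPM and Bmp4 at 0.3561 and 0.3831 CPM. The classes together held between 61.29% and 89.47% of a gene's UMIs among kept cells.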

How the results depend on the processing

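Of the 68 differences tested among the 10 genes, 48 were called, and 41 of those 48 were called in the same direction under every alternative with a test. The replicate block changed the call of 5 of the 68 and no other: Id1 and Id4 between cycling and non-cycling radial glia, Bmpr1a against GE progenitors, Id2 between mural and endothelial cells and Id3 between fibroblasts and mural cells. Between cycling and non-cycling radial glia, 1 of the 10 genes was called, against 3 with the replicate block, 2 with classes by the highest marker score, 2 without the cells that held choroid markers (chosen after seeing the data), 0 without a filter on low counts and 0 with DESeq2; the cause was not tested. Over all genes, 2004 were called there by edgeR, 2937 with the replicate block, 2517 with the highest score, 1968 without the choroid cells, 833 by DESeq2 and 1138 without the filter. DESeq2 also called 3788 genes in place of 5872 between radial glia and IPCs, 3527 in place of 5585 against GE progenitors, 1955 in place of 3132 between mural and endothelial cells and 1716 in place of 2856 between fibroblasts and mural cells. A single fit of all classes called 4390 in place of 6961 between interneurons and excitatory neurons.

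Differences that changed sign were called neither in the edgeR test nor in the settings that changed their sign. Bmpr1b between radial glia and excitatory neurons moved from -0.01 to 0.19 without TMM, to 0.061 with non-cycling radial glia only and to 0.0068 without the cells that held choroid markers. Between cycling and non-cycling radial glia, Bmpr2 moved to 0.021 without the filter, to 0.021 with doublets removed and to 0.018 with the highest marker score, Bmpr1a to 0.0016 with a stricter gate and 0.061 with the highest score, and Id2 to -0.071 with that score. Between fibroblasts and mural cells, Bmpr1a moved to -0.032 without TMM, Id4 to 0.42 under the narrower cell filter and 0.24 with the highest score, and Id2 to 0.026 with doublets removed. Calls lost under at least 1 setting were those of Smad6 between radial glia and IPCs or excitatory neurons (adjusted p = 0.248 and 0.186 with non-cycling radial glia only), of Bmpr2 between radial glia and excitatory neurons and between fibroblasts and mural cells, of Bmpr1a between interneurons and excitatory neurons, of Id3 with the cell cycle, and of Bmp7 between endothelial cells and radial glia (-0.22, adjusted p = 0.687, with the highest score). Beside the calls gained with the block and those of Id1 with the cell cycle, calls were gained for Id2 between endothelial cells and radial glia (doublets removed, highest score), Id2 between mural and endothelial cells (no filter; -1.82 with doublets removed) and, between fibroblasts and mural cells, Id3 (no filter, doublets removed) and Id2 (no filter).

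Shares of cells with a UMI depend on depth and were 79.11% (Id1) and 84.34% (Id3) in endothelial cells, 89.43% (Id2) in excitatory neurons, 74.44% (Id4) in radial glia and 88.31% (Bmp7) in fibroblasts without thinning; with doublets removed, the thinned Bmp7 share was 45.92%. Endothelial, mural and fibroblast classes held under 100 cells per library, and Bmp4 and Smad6 rest there on few UMIs in some classes.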

Other observations

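Cells of the choroid plexus and of the cortical hem, a dorsal midline region known as a source of BMPs, were too few for a class and are given as levels only. WT replicate 1 held 8 cells with at least 4 choroid plexus markers and WT replicate 6 held 0. Those 8 cells held 280.1 CPM of Id1, 242.7 CPM of Id3, 93.35 CPM of Bmp7 and 31.12 CPM of Bmp4, the last from 5 UMIs in 5 cells. Id4 was at 49.79 CPM there. Their Bmp7 UMIs numbered 15, in 7 of the 8 cells.

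Cells with at least 3 cortical hem markers numbered 8 and 5. They held no Bmp4 UMI in either library, which a depth of 123532 and 68308 UMIs limits. Id4 was at 194.3 CPM in WT replicate 1 and 878.4 CPM in WT replicate 6, and Id3 was at 178.1 and 688.1 CPM, so both levels differed widely between these few cells.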
